A study of Homo sapiens with 6 samples.

Results

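The steroid-converting enzymes other than the UGT2B family were followed in LNCaP cells, an established androgen-responsive line grown from a lymph node metastasis of a human prostate cancer. The members were 10 enzymes that make or inactivate androgens: STS, SRD5A1, SRD5A3, AKR1C3, HSD17B2, HSD17B3, HSD17B4, HSD17B6, HSD17B10 and HSD17B11. All array probe sets annotated to exactly one of these genes were taken, which gave 16 probe sets for 9 genes, out of 54675 probe sets and 19775 genes with a probe set of their own. SRD5A3 had no such probe set in the annotation used and was not analysed here. The group labelled DHT stimulation held 3 cultures exposed over 48 h to dihydrotestosterone (DHT, at 100 nM), the androgen with the strongest hold on its receptor. The control group also held 3 cultures, and the labels do not name a vehicle for them. Both groups had first been kept for 3 days in RPMI without phenol red, with 10% fetal serum that had been stripped of steroids with charcoal and dextran. One Affymetrix array was run per culture, so that each value below is the signal of 1 culture. The labels call the 3 cultures of a group biological replicates without saying whether they were grown on separate days, so that p-values measure the spread between these cultures.

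Androgens reach prostate cells both as testosterone and as weak adrenal precursors, largely in sulfated form. Steroid sulfatase frees the precursors, reductive hydroxysteroid dehydrogenases turn ketosteroids into active hydroxysteroids, and the steroid reductases of the SRD5A family turn testosterone into DHT. Some oxidative hydroxysteroid dehydrogenases turn active hydroxysteroids back into ketosteroids and so lower the active pool. Several enzymes named after this steroid step have other main duties, HSD17B4 in peroxisomal fatty acid breakdown and HSD17B10 in mitochondria. The comparison therefore asked which of these transcripts LNCaP cells carry at all, and how their signals differ after a ligand that is itself a product and a substrate of the pathway.

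Of the 9 measured enzymes, 5 had a probe set above background, namely HSD17B4, HSD17B10, SRD5A1, STS and HSD17B11, while AKR1C3, HSD17B2, HSD17B3 and HSD17B6 had none. The values deposited by the authors are MAS5 signals on a linear scale without detection calls, and background was read from 59 probe sets of 36 genes of other tissues, such as eye, pancreas, muscle and testis. These had a median signal of 12.1 and a 95th percentile of 50.5. A probe set was taken as above background where all 3 arrays of at least one group exceeded 50.5, which 7 of the 16 did. The brightest of the tissue genes, a haemoglobin, reached 87.9, and with that stricter limit HSD17B11 was not above background either. Probe sets differ in how well they bind, so that these signals place a probe set against background and do not rank the enzymes by amount.

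**Figure D1:**
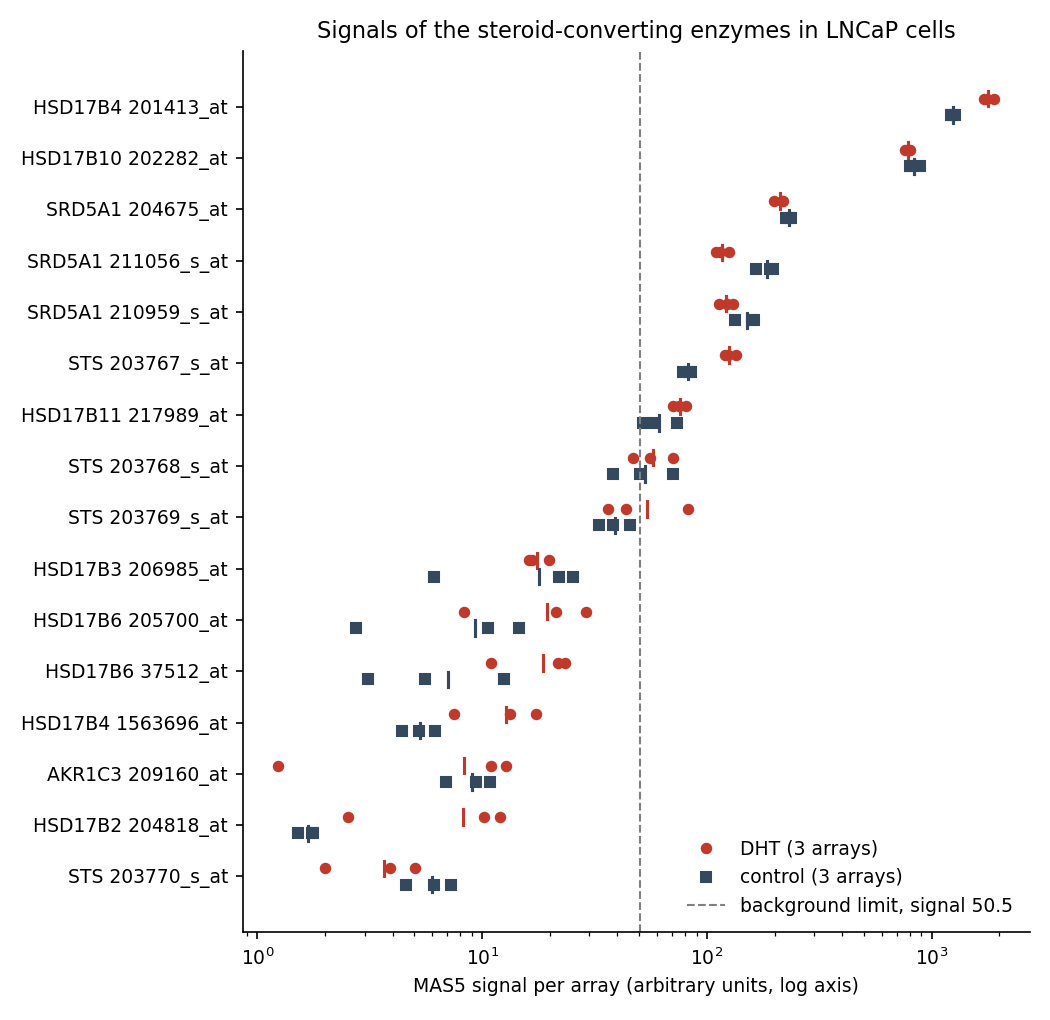
Signal of each of the 16 probe sets on each array (log axis), with DHT cultures as circles above control cultures as squares, the group mean as a short bar and the background limit of 50.5 as a dashed line. The 7 probe sets counted as above the limit are 1 each of HSD17B4, HSD17B10, STS and HSD17B11 and 3 of SRD5A1, and all probe sets of AKR1C3, HSD17B2, HSD17B3 and HSD17B6 lie left of it.

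The line's label held against its markers. All 8 measured luminal prostate markers were above background, with a summed signal of 18940 to 20079 in DHT cultures and 7775 to 8261 in control cultures. The androgen target KLK3 had 8985 ± 441 in DHT cultures against 2186 ± 261 in control cultures (SD, n = 3 each). The markers did not share a direction. KLK2, TMPRSS2 and SLC45A3 were also higher in DHT cultures, and FOLH1 and KRT18 less so, by 0.33 and 0.23 on the log2 scale. Lower in DHT cultures were KRT8, at 437 ± 37.7 against 595 ± 13.6, and HOXB13, at 1203 ± 142 against 1556 ± 102. Of 10 measured markers of basal, stromal, blood and neuroendocrine cells, 1 was above background, COL1A1, at 132 ± 20.7 in DHT cultures and 198 ± 22.7 in control cultures. The blood marker CD3D was also among the genes that set the background limit, so its place under that limit is not an independent check. In bulk RNA, fewer cells with a transcript and less transcript per cell cannot be told apart. Across probe sets, pairs of arrays from the same group had r = 0.973 to 0.978 and pairs from different groups r = 0.958 to 0.966. RNA quality and spike signals moved with treatment. For ACTB, the signal of the 3' control probe set over that of the 5' one was 1.77 ± 0.07 in DHT cultures and 1.37 ± 0.05 in control cultures, and for GAPDH it was 1.06 ± 0.05 and 0.904 ± 0.044 in the same order of groups (SD, n = 3 each; two-sided exact permutation p = 0.1 for both, the smallest that 3 against 3 arrays can give). The 7 probe sets of the bacterial hybridisation spikes were brighter in DHT cultures, at mean signals of 728 to 892.5 against 585 to 652 in control cultures, a difference of 0.45 on the log2 scale (exact permutation p = 0.1). The part of either measure in the changes below was not tested.

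Changes were computed as DHT minus control on log2(signal + 16) with limma. The added 16 shrinks changes of dim probe sets. The fit ran across all 32768 probe sets brighter than the lowest 40%. Of the 16 member probe sets 9 passed that limit, and 3 of the 9 were called at an adjusted p of 0.05, against 10.3% of all tested. Of these, 2 were higher with DHT (5.09% of all tested probe sets were) and 1 was lower (5.25% of all). Their median change was 0.11, against 0.01 over all tested probe sets. Read as genes from the brightest probe set, 2 of 5 were higher (6.95% of 14269 genes) and none was lower (5.91% of genes). At an unadjusted p under 0.05 limma also gave 0 lower, against 1732 of all 14269 genes. Groups without overlap were seen in 6 of 9 member probe sets, against 28.7% of all, with 2 higher (15% of all) and 4 lower with DHT (13.8% of all). Of the 5 genes 4 had groups without overlap, against 31% of all genes. With so few members these counts describe the list and show nothing particular to it. All directions are relative to the mean array level that the authors scaled to. Scaled to the hybridisation spikes instead, the median of all probe sets became -0.43, and the 2 higher calls were lost.

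**Figure D2:**
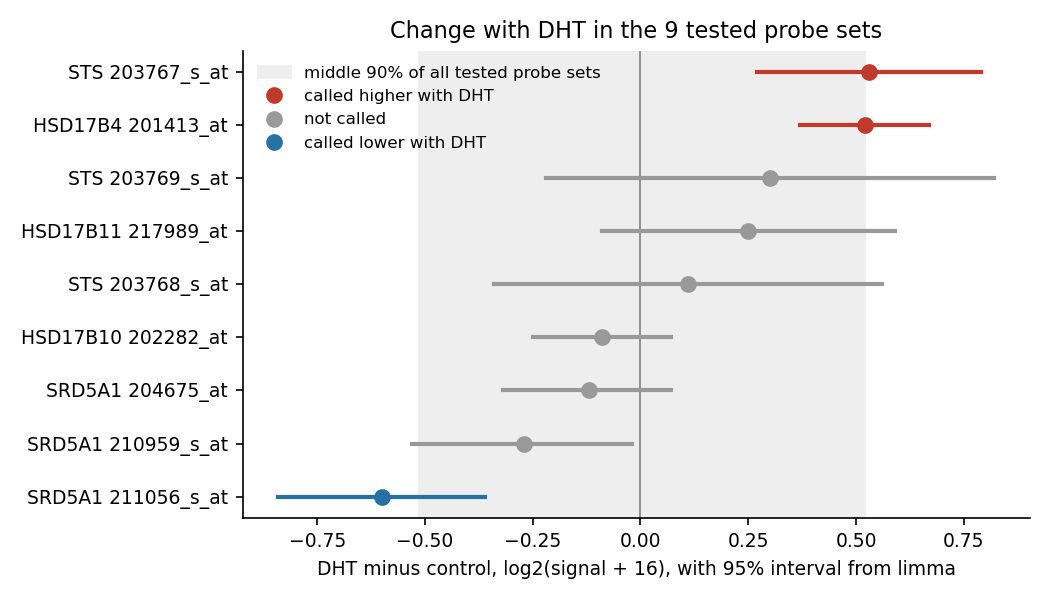
Change with DHT of the 9 tested probe sets on log2(signal + 16), as points with limma's 95% interval, in red where called higher, blue where called lower and grey where not called; the grey band spans -0.51 to 0.52, the middle 90% of all 32768 tested probe sets. The called points of STS (0.53) and HSD17B4 (0.52) lie on the right, that of one SRD5A1 probe set (-0.60) on the left.

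Steroid sulfatase STS, the enzyme that cleaves the sulfate from circulating steroid precursors, was higher with DHT in 1 of its probe sets. The brightest, 203767_s_at, had signals of 124, 135 and 119.9 in DHT cultures, against 78.6, 84.9 and 83.5 in control cultures. Every DHT culture lay above every control culture. The means differed 1.53-fold, at a log2 change of 0.53 ± 0.12 (SE; limma adjusted p = 0.015 over probe sets and 0.013 over genes). Probe set 203768_s_at had 55.8, 70.5 and 47.1 in DHT cultures and 50.4, 38.1 and 70.8 in control cultures. Its groups overlapped, at a change of 0.11 (95% interval -0.34 to 0.56; limma adjusted p = 0.803). Its sign turned without control replicate 2 (-0.05) or DHT replicate 2 (-0.01). Probe set 203769_s_at had 43.5, 36.4 and 82.3 in DHT cultures and 33.2, 45.7 and 38.1 in control cultures, where a single DHT culture stood above all others and the change was 0.30 (-0.22 to 0.82; adjusted p = 0.492). The fourth, 203770_s_at, stayed at signals of 2.0 to 5.05 in DHT cultures and 4.59 to 7.28 in control cultures, below background, and was not tested. The brightest probe set exceeded 203768_s_at by 0.96 ± 0.15 in DHT cultures and 0.54 ± 0.35 in control cultures on the log2 scale (SD, n = 3 each), a difference of 0.42 with overlapping groups (exact permutation p = 0.2), which was 0.25 without control replicate 3 and 0.602 without control replicate 2. Over 203769_s_at the excess was 1.07 ± 0.55 in DHT cultures and 0.84 ± 0.12 in control cultures, a difference of 0.23 (exact permutation p = 0.5) that was 0.005 without DHT replicate 2 and 0.533 without DHT replicate 3. The mean of the 3 tested STS probe sets changed by 0.31 (limma adjusted p = 0.122). The call on 203767_s_at was also lost without DHT replicate 2 (0.49, adjusted p = 0.0634) and with spike scaling (0.08, adjusted p = 0.705).

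RefSeq lists several start sites for STS, and 5 promoter windows of 250 bases before to 50 after a start were available (GRCh38.p14). They were searched on both strands for the androgen receptor half-site AGAACA, which reads TGTTCT on the other strand, for the full palindrome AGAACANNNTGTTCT, which holds the half-site on both arms, and for the GC box GGGCGG, which reads CCGCCC on the other strand and overlaps neither. The half-site occurs in 14.8% of 35116 RefSeq windows of the same length, the full palindrome in 1 window, and the GC box in 45.0%. The 13 windows of 7 measured members are not all distinct. The 2 windows of HSD17B10 overlap nearly in full and hold the same GC boxes, and the last 2 of STS overlap in part. Of the 13 windows, 2 held a half-site, both of STS, 5 held a GC box and 0 held the full palindrome. One of these STS windows, chrX:7147040-7147339 on the plus strand, is shown because it holds a half-site, given in capitals, which begins at position -105 from the start site. STS was called higher in 1 of its 4 probe sets.
STS promoter window: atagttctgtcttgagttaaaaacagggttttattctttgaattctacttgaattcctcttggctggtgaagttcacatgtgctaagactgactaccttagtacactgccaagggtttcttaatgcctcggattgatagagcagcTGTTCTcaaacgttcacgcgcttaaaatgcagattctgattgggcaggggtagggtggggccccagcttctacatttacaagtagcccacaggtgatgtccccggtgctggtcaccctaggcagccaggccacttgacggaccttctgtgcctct
A match of these letters is a description of the window and not a site, and the arrays do not show which start site was in use.

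SRD5A1 reduces testosterone to DHT and, of SRD5A1 and SRD5A2, is the one with a probe set above background here. SRD5A3, of the same family, was not analysed. All 3 SRD5A1 probe sets had lower signals in every DHT culture than in any control culture, and 1 of them fell at the threshold used. Probe set 211056_s_at had 126, 109.6 and 114 in DHT cultures, against 198, 191 and 166 in control cultures. Its mean with DHT was 0.63 of that in controls, a log2 change of -0.60 ± 0.11 (SE; limma adjusted p = 0.00594 over probe sets). Probe set 210959_s_at had 123, 130.4 and 113 in DHT cultures and 159, 133 and 163 in control cultures, which nearly touched, at a change of -0.27 ± 0.12 (limma adjusted p = 0.178). The brightest, 204675_at, had 198, 219 and 216 in DHT cultures and 232, 237 and 224 in control cultures. It changed by -0.12 ± 0.09, with a 95% interval of -0.32 to 0.07 (adjusted p = 0.457 over probe sets and 0.433 over genes).

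The SRD5A1 probe sets thus share a direction and differ in size. The brightest exceeded 211056_s_at by 0.78 ± 0.16 in DHT cultures and by 0.30 ± 0.09 in control cultures on the log2 scale (SD, n = 3 each). The groups did not overlap, a difference of 0.48, and the two-sided exact permutation p of 0.1 is the smallest the design allows. Against 210959_s_at the difference was 0.15 (exact permutation p = 0.3). Whether SRD5A1 is called as a gene therefore turns on the probe set read. The brightest gives no call, and the mean of its 3 probe sets gives -0.33 (limma adjusted p = 0.0231). The related isoenzyme SRD5A2, the main reductase of normal prostate, was read from a dim probe set with signals of 19.5 in DHT cultures and 20.1 in control cultures on average, below background, at a change of -0.06 (adjusted p = 0.917 over genes). With spike scaling all 3 SRD5A1 probe sets were called lower, at -0.57, -0.72 and -1.05.

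**Figure D3:**
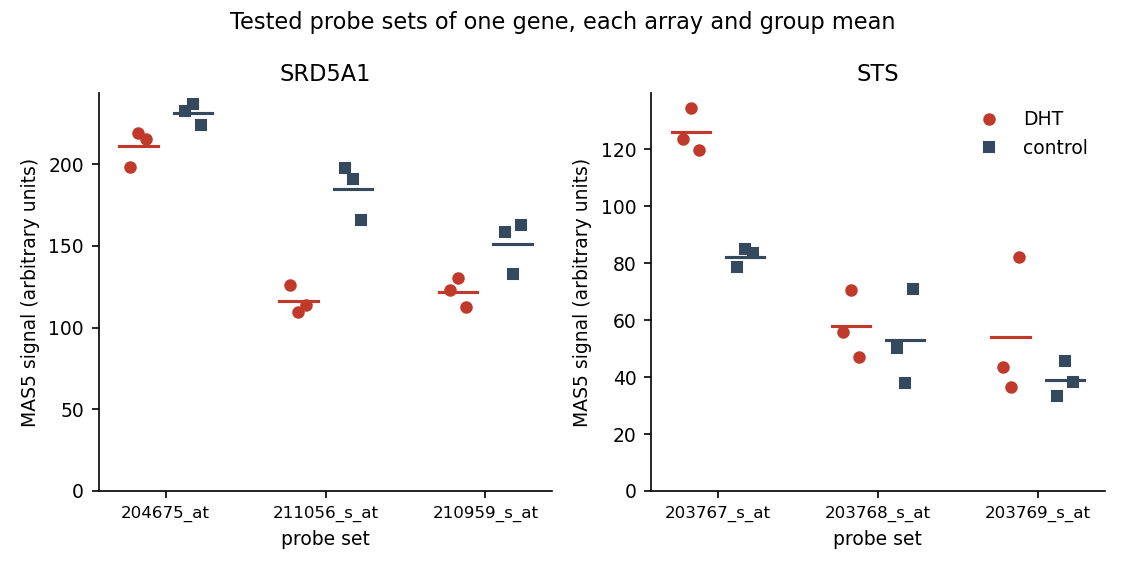
Signals (linear axis from 0) of the tested probe sets of SRD5A1, left, and STS, right, with DHT cultures as circles left of control cultures as squares and group means as bars. In SRD5A1 every probe set is lower in DHT cultures and 211056_s_at the most, while in STS only 203767_s_at separates the groups.

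The SRD5A1 window, chr5:6633190-6633489 on the plus strand, is given as that of the member with a lower call. It held 0 androgen receptor half-sites and 2 GC boxes, in capitals.
SRD5A1 promoter window: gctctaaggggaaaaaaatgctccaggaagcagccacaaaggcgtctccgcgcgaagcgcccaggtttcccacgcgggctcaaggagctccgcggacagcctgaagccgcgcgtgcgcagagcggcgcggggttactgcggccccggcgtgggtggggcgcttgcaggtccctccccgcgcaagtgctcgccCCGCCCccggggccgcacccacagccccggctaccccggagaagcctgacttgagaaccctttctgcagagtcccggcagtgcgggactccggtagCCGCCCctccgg
Of its bases 71.0% are G or C, against 41.0% to 63.7% in the 5 STS windows, of which 3 also held no half-site and 1 held a GC box.

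AKR1C3, HSD17B3 and HSD17B6, dehydrogenases that can feed the pool of active androgen, were below the background limit in both groups. AKR1C3, an aldo-keto reductase that forms testosterone in prostate tumours, had signals of 1.24, 10.9 and 12.8 in DHT cultures and 9.38, 10.8 and 6.89 in control cultures (209160_at). HSD17B3, the testicular enzyme of the last step to testosterone, had 16.6, 16.1 and 19.8 in DHT cultures and 6.13, 25.5 and 22.1 in control cultures (206985_at). Both pairs of groups overlapped, and all 12 values lay under the limit of 50.5. HSD17B6, which can oxidise a weak DHT metabolite back to DHT, had 21.3, 8.33 and 28.9 in DHT cultures and 2.74, 14.5 and 10.6 in control cultures for 205700_at. Its other probe set, 37512_at, had 10.9, 23.3 and 21.8 in DHT cultures and 12.5, 3.12 and 5.56 in control cultures. In both HSD17B6 probe sets 2 of 3 DHT cultures stood above all controls, all of them below the background limit.

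HSD17B2, an enzyme that oxidises testosterone to a weaker ketosteroid, was likewise below background, with 10.2, 11.98 and 2.53 in DHT cultures and 1.77, 1.76 and 1.51 in control cultures (204818_at). The groups did not overlap, and no fold is given because both lie under the limit. When all probe sets were tested without the limit on dim ones, none of these 5 probe sets passed, with limma adjusted p = 0.21 for HSD17B2, 0.248 and 0.478 for HSD17B6, 0.918 for AKR1C3 and 0.973 for HSD17B3. AKR1C3 belongs to a family of closely related genes. AKR1C1 and AKR1C2 were read from probe sets of the _x_at class, whose probes can bind related transcripts, at 75.8 in DHT cultures and 61.0 in control cultures for AKR1C1 and 29.1 and 33.0 for AKR1C2 in the same order, and neither was called (limma adjusted p = 0.289 and 0.793). The other tested AKR1C1 probe set pointed the opposite way, at -0.29.

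HSD17B4, a peroxisomal enzyme that can oxidise active hydroxysteroids to weaker ketosteroids and takes part in the breakdown of very long and branched fatty acids, was the brightest member and rose with DHT. Probe set 201413_at had 1892, 1758 and 1716 in DHT cultures, against 1233, 1273 and 1216 in control cultures. The lowest DHT culture lay well above the highest control. The means were 1789 ± 92.2 in DHT cultures and 1241 ± 29.2 in control cultures (SD, n = 3 each), a 1.44-fold difference and a log2 change of 0.52 ± 0.07 (SE; 95% interval 0.37 to 0.67; limma adjusted p = 0.00086 over probe sets and 0.000723 over genes). Leaving out any one array gave 0.48 to 0.55 and kept the call. With spike scaling the change was 0.07 and was not called (adjusted p = 0.656). The second probe set, 1563696_at, had 17.4, 7.51 and 13.3 in DHT cultures and 5.23, 6.16 and 4.42 in control cultures. It pointed the same way without overlap but lay under the background limit (limma adjusted p = 0.276 without the limit on dim probe sets).

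The promoter window of HSD17B4, chr5:119452247-119452546 on the plus strand, is shown as that of the other member with a higher call. It held 0 half-sites and 1 GC box, in capitals.
HSD17B4 promoter window: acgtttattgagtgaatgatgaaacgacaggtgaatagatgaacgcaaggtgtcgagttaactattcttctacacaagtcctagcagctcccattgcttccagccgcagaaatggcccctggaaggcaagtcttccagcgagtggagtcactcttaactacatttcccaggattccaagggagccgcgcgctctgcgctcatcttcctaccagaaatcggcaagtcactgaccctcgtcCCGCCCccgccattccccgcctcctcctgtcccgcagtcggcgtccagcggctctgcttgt
The absence of the half-site says only that these letters are not in this window.

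HSD17B10 and HSD17B11 were expressed and not called. HSD17B10, a mitochondrial dehydrogenase that also serves in isoleucine breakdown and in the processing of mitochondrial transfer RNA, had 795, 799.7 and 758 in DHT cultures and 891, 801 and 813 in control cultures (202282_at). The DHT cultures lay just below the controls, at a change of -0.09 ± 0.07 (95% interval -0.25 to 0.07; limma adjusted p = 0.527), so a change as large as that of HSD17B4 lay outside the interval in either direction. HSD17B11, a dehydrogenase found on lipid droplets that can act on androstanediol, had 81.1, 75.0 and 70.8 in DHT cultures and 58.4, 52.1 and 73.7 in control cultures (217989_at). The groups overlapped through 1 control culture, and the change was 0.25 ± 0.15 (-0.09 to 0.59; adjusted p = 0.363), an interval that includes both 0 and the size seen for STS. With spike scaling HSD17B11 had -0.20 and HSD17B10 was called lower at -0.53.

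The genes whose pattern over the 6 arrays was most like that of each member called higher per gene were found by the root mean square difference of centred log2 signals, over 14264 other tested genes. For STS these were PDXDC1 (0.020), PRDX6 (0.023) and GTF2I-AS1 (0.035), against a median of 0.318 over all genes. For HSD17B4 they were SMIM13 (0.033), SLC27A2 (0.035) and DEGS1 (0.043), against a median of 0.313. SLC27A2 activates very long fatty acids, and its signal averaged 304 in DHT cultures and 214 in control cultures. PRDX6, an antioxidant peroxidase, averaged 3247 in DHT cultures and 2240.1 in control cultures. With 3 arrays a group such likeness mainly says that a gene has the same step between groups.

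Around the members, 6 lists of related genes were read, with 84 entries. Tests covered 64 of these, 12 more were too dim to pass the filter and 8 were not analysed here. The filter lay at a signal of 17.3, under the background limit of 50.5, so some tested genes were not above background. Of the 64, 3 were higher and 3 lower with DHT, and their median change was 0.02, the same as over all 14269 genes. All 6 calls over these lists are given in the following sentences. At 6 of 64 their share can be set beside the 12.9% of all genes called.

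The list of precursor supply (steroid synthesis, electron donors, uptake and sulfate activation) held 4 of the calls among 12 tested genes, at a median of 0.11. Of all genes 12.9% were called, and the difference between this list and that share was not tested. SUMF2, a paralogue of the factor that activates sulfatases such as STS, had 613, 629 and 633 in DHT cultures, against 473, 489 and 449 in control cultures, and rose by 0.40 ± 0.07 (limma adjusted p = 0.005; -0.05 with spike scaling). The call of SUMF2 was lost without the intensity trend (limma adjusted p = 0.0663). The activating factor itself, SUMF1, had 0.11 and was not called (adjusted p = 0.413). PAPSS1, which makes the activated sulfate used to conjugate steroids, had 996, 1106 and 994 in DHT cultures, against 887, 765 and 806 in control cultures, and rose by 0.33 ± 0.08 (adjusted p = 0.0216; -0.12 with spike scaling). Without control replicate 2, control replicate 3 or DHT replicate 2 that call was lost (adjusted p = 0.0683 to 0.0892), as it was with equal array medians (0.29, adjusted p = 0.112) and without the intensity trend (0.139).

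H6PD, which supplies reducing power to steroid dehydrogenases inside the endoplasmic reticulum, had 268, 256 and 268 in DHT cultures, against 320.2, 374 and 362 in control cultures. It fell by 0.39 on the log2 scale (SE 0.09, limma adjusted p = 0.0143), and its other tested probe set had -0.83. H6PD was not called without control replicate 2, control replicate 3 or DHT replicate 2 (adjusted p = 0.0519 to 0.0586). Its call was also lost without the intensity trend (limma adjusted p = 0.0858). FDX1, the ferredoxin of mitochondrial steroid hydroxylases, had 471, 570.3 and 482 in DHT cultures, against 674, 612 and 621 in control cultures, and fell by 0.32 (SE 0.09, adjusted p = 0.0381). Its other probe sets ranged from -0.41 to 0.23, and of the 6 fits that leave out an array FDX1 kept its call only in that without DHT replicate 2. Without the intensity trend it was not called either (limma adjusted p = 0.167). The gatekeeper enzyme CYP17A1 was read from a signal of 26.5 in DHT cultures and 26.9 in control cultures, below background, and STAR, CYP11A1, HSD3B1 and HSD3B2, which carry out the first steps of steroid synthesis, were under the limit on dim probe sets.

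Among 18 tested relatives of the members, RDH11, a retinal reductase of prostate epithelium, was the one call (12.9% of all genes were called). It had 5288, 5217 and 5432 in DHT cultures, against 3608, 4287 and 3861 in control cultures, and rose by 0.44 ± 0.08 (limma adjusted p = 0.00437). Its 3 other tested probe sets had 0.03 to 0.30, their mean with it was 0.21 (adjusted p = 0.243), and with spike scaling it had -0.01. Without the intensity trend RDH11 was not called (limma adjusted p = 0.0682). The list's median was -0.07 and its range ran from -0.52 for DHRS11 to 0.89 for HSD11B1, both named after their values were seen. HSD11B1, which reactivates cortisone, had 39.9, 23.6 and 48.7 in DHT cultures and 11.9, 6.32 and 20.4 in control cultures, under the background limit throughout, and missed the threshold (adjusted p = 0.0514). HSD17B12, HSD17B8 and HSD17B7, members of the same naming family with signals above background, had -0.16, 0.08 and -0.08 and were not called. HSD17B12 was lower in every DHT culture than in any control culture, and HSD17B7 was read from a probe set of the _x_at class. Also above background and not called were HSD17B1 (-0.10, and -0.36 in its other probe set) and HSD17B14 (0.09, and -0.76 to 0.29 in its others).

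**Figure D4:**
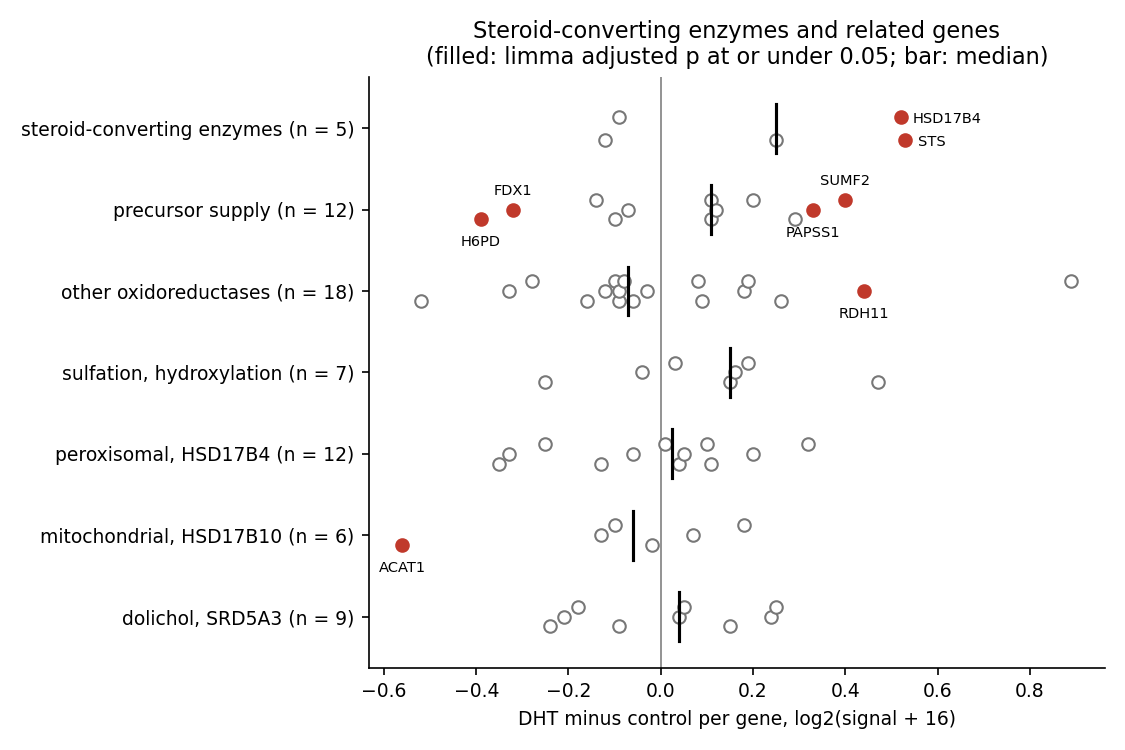
Change with DHT per gene on log2(signal + 16) for the 5 tested steroid-converting enzymes and for 6 lists of related genes, with filled points for an adjusted p at or under 0.05, open points for the rest and a bar at each median. Calls lie on both sides of 0 in the list of precursor supply, and no call is seen among inactivation, peroxisomal or dolichol genes; with spike scaling SUMF2, PAPSS1 and RDH11 were at or below 0.

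The partners of HSD17B4 in peroxisomal fatty acid breakdown did not pass the test with it. Of 12 tested, limma called 0 (0 higher and 1 lower at an unadjusted p under 0.05), at a median of 0.02 and a range of -0.35 to 0.32. Among these, ACOX2, ACOX3, EHHADH and AMACR were read from probe sets that were not above background. ACAA1, the peroxisomal thiolase, had 495 in DHT cultures and 479 in control cultures, and the transporter ABCD3 had 484 and 448 in the same order. Other probe sets of this list could differ in sign from the one read: ABCD3 had 0.11 in the one read and -0.42 in another (mean -0.16, limma adjusted p = 0.209), and PEX5, the import receptor for peroxisomal proteins, had 0.20 and -0.91 (mean -0.35, adjusted p = 0.0608). The difference between HSD17B4 and its partners was not tested. Of 6 tested genes that work with HSD17B10 in mitochondria, 1 fell (5.91% of all genes were called lower). This was ACAT1, the thiolase that follows HSD17B10 in isoleucine breakdown, with 1481, 1732 and 1464 in DHT cultures, against 2394, 2300.5 and 2185 in control cultures, a change of -0.56 ± 0.08 (limma adjusted p = 0.0013). ACAT1 kept its call and its sign in all 17 alternative settings. TRMT10C and PRORP (the second below background), which form the mitochondrial enzyme that trims transfer RNA together with HSD17B10, had -0.13 and -0.02 and were not called.

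Genes of dolichol synthesis and use, the pathway in which SRD5A3 acts, had 9 tested members, at a median of 0.04. Of these limma called 0 (2 higher and 1 lower at an unadjusted p under 0.05). Over all 14269 genes 12.9% were called, and 1969 were higher and 1732 lower at an unadjusted p under 0.05. Of 7 tested genes of sulfation, hydroxylation and supply of glucuronic acid, 0 were called (0 higher and 1 lower at an unadjusted p under 0.05). Among these, CYP7B1, CYP3A4, CYP3A5 and CYP3A43 were read from probe sets that were not above background. UGDH, which makes the sugar donor for androgen glucuronidation, had 290.0 in DHT cultures and 349 in control cultures, a change of -0.25 (adjusted p = 0.0985).

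**Figure D5:**
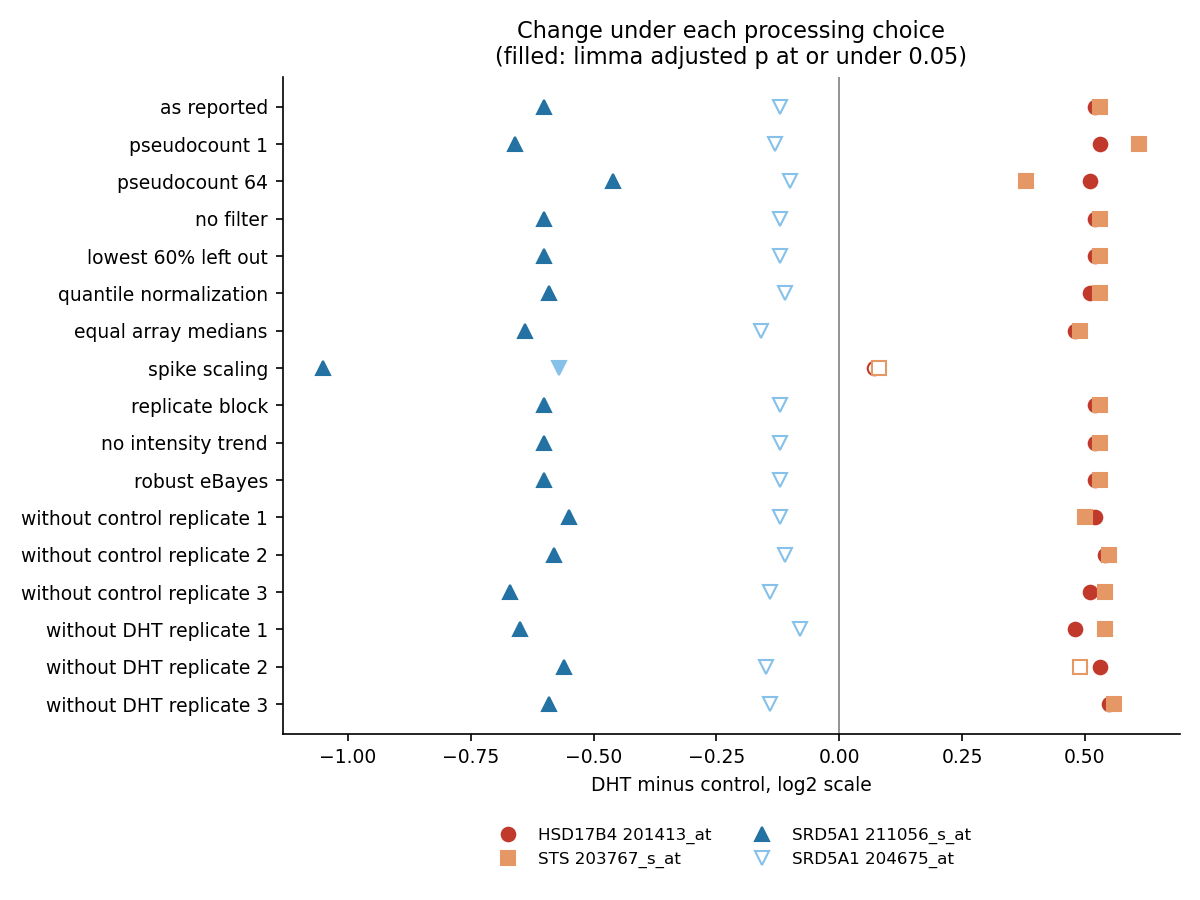
Change with DHT (log2 scale) of 4 member probe sets as reported and under 16 other processing choices, filled where the adjusted p is at or under 0.05. HSD17B4 and SRD5A1 211056_s_at keep their side of 0 throughout, STS opens without DHT replicate 2, and with spike scaling HSD17B4 and STS move to 0.07 and 0.08 and are open.

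Across the 16 other choices, SRD5A1 211056_s_at kept its sign and its call in all, with changes of -1.05 to -0.46. HSD17B4 201413_at kept both in 15, and STS 203767_s_at in 14.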

How the data were processed

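RNA of 6 LNCaP cultures was measured on 1-colour Affymetrix arrays. The deposited values are linear signal intensity from MAS5, a program named in the submitters' processing notes without a version. The 2% trimmed mean was 100.03 on every array, so the arrays had been scaled before deposition and any change in total mRNA is removed. No columns were left unused, and the labels give no genome build.

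Of 54675 probe sets, 62 array controls were left out. The platform annotation names 1 gene for 41097, several for 1801 and none for 11777. Gene identifiers of 41043 matched a GRCh38.p14 table, and 0 symbols changed. The lowest 40% by mean log2(signal + 16) were removed, at a signal of 17.3, which left 32768 probe sets. Tests used limma 3.58.1 in R 4.3.3 (lmFit, eBayes with an intensity trend), with Benjamini-Hochberg adjustment over all probe sets, or over 14269 genes each read from its brightest probe set. Probe sets ending in _x_at were used only where no other was tested. The fit had 4 residual degrees of freedom. Its steps were tested on simulated data. Exact permutation tests used scipy 1.17.1.

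Named genes are all members, called genes of 6 related lists (up to 4 each) and 3 genes most like each member called per gene; genes named beside these were chosen after their values were seen. Members and lists were chosen with earlier results of these data known, and the alternatives for probe sets of one gene were chosen after seeing the data. The alternatives were other pseudocounts, filters, scalings, variance models, the replicate block, averaging the probe sets of a gene and each array left out. The number of arrays limits the precision.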

Additional observations from a re-analysis of the deposited data

How the results depend on the processing

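Member probe sets past the threshold numbered 3, and 2 to 3 with an array left out; member genes numbered 2, and 1 to 2 (1 without DHT replicate 2, where STS was lost). With spike scaling 4 member probe sets were called, all lower (3 of SRD5A1 and HSD17B10), and with the mean of probe sets HSD17B4 and SRD5A1 were the genes called. Members above background numbered 5, or 4 with the maximum as limit. Over all features, 3388 probe sets and 1834 genes were called, against 13933 and 6610 with spike scaling, 1264 and 671 without the intensity trend, and 2066 to 2635 and 1164 to 1402 with an array left out (fewest without control replicate 3; 2147 and 1180 without DHT replicate 3). Of gene calls 54.0% were higher, against 45.0% with equal array medians (644 higher and 786 lower, where 991 and 843 are reported) and 2.04% with spike scaling, which subtracts one constant from every change. Equal medians also ended the calls of PAPSS1 (0.29, adjusted p = 0.112) and FDX1 (-0.36, adjusted p = 0.0624). Calls in the 6 lists numbered 6, against 30 with spike scaling, 1 without the trend and 3 to 6 with an array left out (3 without control replicate 2 or 3). PAPSS1, SUMF2 and RDH11 turned to -0.12, -0.05 and -0.01 with spike scaling, none called, since the constant of 0.45 exceeded their changes. Why the spikes differed between groups was not tested. Same-numbered arrays did not deviate together (r = -0.03 to 0, against -0.03 to 0.04 for the other pairs). Whether the cultures were grown in pairs cannot be read from this, and the labels do not say. With the replicate block 3 member probe sets, 2 member genes, 3114 probe sets and 1698 genes were called. Of the named genes FDX1 lost its call there (-0.32, limma adjusted p = 0.0521). With an array left out, the group difference of the 3' to 5' ratio was 0.372 to 0.437 for ACTB and 0.132 to 0.183 for GAPDH.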
